A study of Homo sapiens with 4 samples.

Results

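The m6A peaks of 10 receptor tyrosine kinase genes were examined in OE-19 cells: EGFR, ERBB3, ERBB4, MET, IGF1R, INSR, FGFR1, FGFR2, FGFR3 and FGFR4. The genes were taken by name from the annotation, and every peak with its summit between the first and last base of a gene was counted as a peak of that gene. This gave 28 of the 24607 peaks of replicate 1 and 27 of the 19318 peaks of replicate 2. OE-19 is an established line of adenocarcinoma of the esophagogastric junction (AEG), and all samples came from this line with no treatment named in the labels. The series held 2 replicates of an m6A immunoprecipitation (IP) and 2 replicates of input RNA, and peaks were called in each IP replicate apart. In this assay (meRIP-seq), an antibody enriches RNA fragments that carry N6-methyladenosine (m6A), and a peak is a region where such fragments pile up. The labels do not say whether the replicates were separate cultures. The summit is its highest point, and the fold enrichment is the authors' ratio of the signal at the summit over the local background of the peak caller. No expression values, read numbers or input peaks were analysed here, so the depth is unknown, a gene without a peak cannot be told apart from a gene without RNA, and the cell line label was not checked against marker genes.

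Receptor tyrosine kinases are membrane proteins that bind a growth factor outside the cell, come together and phosphorylate each other inside it. Docking proteins then bind the phosphorylated tails and pass the signal on to the RAS-MAP kinase and PI3K-AKT pathways. In gastroesophageal cancers, several of these receptors are known as amplified oncogenes, among them ERBB2, EGFR, MET and FGFR2. In mRNA, m6A is laid down by METTL3 and its partners, mostly at the DRACH consensus with GGAC as a common core, and is best known near stop codons and in long exons.

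The sequences below show the motif at the peaks that both replicates had. For 7 of the 8 receptors with such a peak, the strongest by the geometric mean of its fold enrichments was taken, and the GGAC nearest to the replicate 1 summit within the bases covered by both peaks is shown with 12 bases to each side of its adenine, 5′ to 3′ on the strand of the gene. The capitals mark GGAC. No sequence is shown for ERBB4, whose shared interval held no GGAC. Each window holds GGAC by this choice, at differing distances from the summits of replicates 1 and 2. The sites of MET, INSR, FGFR2 and FGFR3 lay within 50 nt of both summits. That of EGFR lay 31 and 724 nt away, that of ERBB3 176 and 29 nt, and that of IGF1R 112 and 100 nt. All positions are hg38, and distances are counted along the transcript from where the stop codon begins, negative upstream of it.
EGFR, 3′ UTR, 702 nt, chr7:55206305-55206329, plus strand: ccccactgatGGACcagtggtttcc
ERBB3, CDS, −130 nt, chr12:56101911-56101935, plus strand: tcaggggcctGGACatcaggccccc
MET, CDS of exon 2, −3926 nt, chr7:116699371-116699395, plus strand: tcccatgtcaGGACtgcagcagcaa
IGF1R, 3′ UTR, 795 nt, chr15:98958223-98958247, plus strand: tgggggaactGGACacaataggtct
INSR, CDS, −179 nt, chr19:7117225-7117249, minus strand: tggagtttgaGGACatggagaatgt
FGFR2, 3′ UTR, 32 nt, chr10:121479815-121479839, minus strand: tccccaaacaGGACagcactgggaa
FGFR3, CDS, −3 nt, chr4:1807245-1807269, plus strand: gggggctcgcGGACgtgaagggcca

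Further windows are shown for IGF1R and INSR, the closest relatives in the set, whose peaks lay at like places. They are the GGAC nearest to the replicate 1 summit in exon 2 of each and at the stop codon of IGF1R, and they were chosen after their positions were seen. From the summits of replicates 1 and 2, the exon 2 site lay at 90 and 1 nt in IGF1R. In INSR it lay at −80 and −73 nt, where the minus sign means upstream. The IGF1R site near the stop codon lay at −10 and −19 nt.
IGF1R, CDS of exon 2, −3635 nt, chr15:98707922-98707946, plus strand: tctccactgtGGACtggtccctgat
INSR, CDS of exon 2, −3845 nt, chr19:7267683-7267707, minus strand: agagcctgaaGGACctgttccccaa
IGF1R, CDS near the stop codon, −136 nt, chr15:98957292-98957316, plus strand: cagacactcaGGACacaaggccgag

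First, the receptors with an exonic peak were counted. The set had been chosen with earlier results of these data known. In replicate 1, 9 of the 10 genes had a summit in an exon, beside 42.4% of 20046 protein-coding genes. In replicate 2 it was 8 of 10, beside 34.1%. These 8 were also peak-bearing in replicate 1, and 33.4% of protein-coding genes had an exonic peak in each list. These receptors have 4810 to 18813 nt of annotated exon sequence, counted over all transcripts of a gene. Their transcripts with the longest CDS are shorter, from 3093 nt in FGFR4 to 12235 nt in IGF1R. Of the 8778 protein-coding genes within the range of annotated exon sequence, 45.2% had an exonic peak in both replicates. These genes were matched to the range alone, and not to the receptors' median of 12361 nt. FGFR1 had no peak in either list, and FGFR4 had a single peak in replicate 1. No exonic summit of the receptors lay in an exon of another annotated gene. With a fold enrichment of 5 or more required, 5 genes had an exonic peak in each list, namely EGFR, MET, IGF1R, INSR and FGFR2, beside 19.3% of protein-coding genes.

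Levels of enrichment were moderate. The 28 exonic peaks of replicate 1 had fold enrichments of 2.14 to 12.3 with a median of 5.62, beside a median of 5.295 over all 20134 exonic peaks of that list. The 20 exonic peaks of replicate 2 ran from 2.37 to 8.53 with a median of 4.51, beside 4.82 over 13113 exonic peaks. The receptor peaks thus sat on both sides of the median of their list in each replicate.

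**Figure D1:**
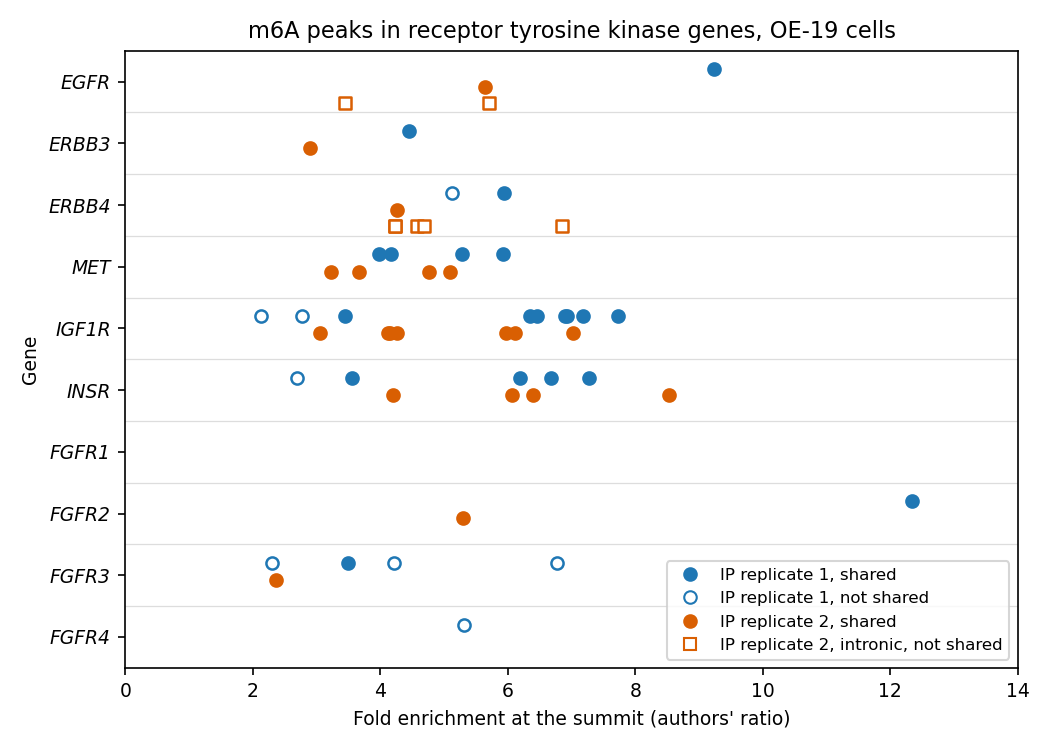
Fold enrichment (authors' ratio) of each m6A peak in the 10 receptor genes, with replicate 1 in blue and replicate 2 in orange. Filled points overlap a peak of the other replicate, open points do not, and squares are intronic peaks. The values run from 2.14 in IGF1R to 12.3 in FGFR2, and the FGFR1 row is empty.

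In the ERBB family, the receptors of EGF-like ligands and neuregulins, each of the 3 genes examined carried its shared peak in the last exon, number 28 of 28. EGFR (ENSG00000146648.21, plus strand of chromosome 7, 55019017 to 55211628), the EGF receptor, had 1 wide exonic peak in each replicate, of 1320 bp (chr7:55205329-55206648) and 1235 bp (chr7:55205346-55206580). Its fold enrichment was 9.24 in replicate 1 and 5.64 in replicate 2, with −log10 q of 48.9 and 41.3. The summits lay 693 bp apart, at 671 nt in the 3′ UTR in replicate 1 and at −22 nt in CDS in replicate 2, so that the peaks overlapped while their highest points stood far apart. Both peaks covered 6 GGAC motifs, at −251, −128, −107, 54, 702 and 870 nt.

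ERBB3 (ENSG00000065361.17, plus strand of chromosome 12, 56076799 to 56103505), which has little kinase activity and signals as a partner of ERBB2, had 1 peak in each list, at 56101602 to 56102164 in replicate 1 and 56101646 to 56102124 in replicate 2. The values were 4.45 in replicate 1 and 2.89 in replicate 2, at percentiles 36.6 and 15.1 of the exonic peaks of each list. Although the fold was low, −log10 q was 28.4 and 18.3. The summits lay in CDS at −306 and −159 nt, and the single GGAC of the shared interval lay closer to the replicate 2 summit, 29 nt to its 3′ side. ERBB4 (ENSG00000178568.16, minus strand of chromosome 2, 211375717 to 212538841), a neuregulin receptor, had a narrow shared peak with values of 5.94 and 4.25 and summits at −190 and −179 nt. Its −log10 q of 5.36 and 2.375 was the lowest of the shared receptor peaks in each list. A second ERBB4 peak of replicate 1, in the 3′ UTR at 1050 nt, had a fold enrichment of 5.12 and no counterpart.

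The remaining family member ERBB2, the orphan partner of the other receptors, had no exonic peak in either list. Each replicate had 1 intronic ERBB2 peak, with fold enrichments of 2.297 and 2.248, and these did not overlap.

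MET (ENSG00000105976.16, plus strand of chromosome 7, 116672196 to 116798377), the receptor of hepatocyte growth factor, had 4 exonic peaks in each replicate, and all 4 were shared. The 2 upstream ones lay in exon 2, which at 1214 nt is the longest internal exon of the transcript, beside a median of 157 nt for its internal exons. This exon holds the start codon and the first part of the extracellular domain. The first of them had values of 5.93 in replicate 1 and 5.09 in replicate 2, with summits at −3885 and −3903 nt. The second had 5.28 and 3.66, at −3500 and −3520 nt. Near the stop codon the values were 3.97 and 3.23, at 120 and 90 nt, both in the 3′ UTR. The last MET peak lay near the 3′ end of the transcript, at 1955 and 1690 nt, and was higher in replicate 2, with 4.17 against 4.76, whereas the other MET peaks were higher in replicate 1. Its interval held 2 GGAC motifs, of which that at 2031 nt lay nearest to the replicate 1 summit and that at 1692 nt to the replicate 2 summit.

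IGF1R (ENSG00000140443.15, plus strand of chromosome 15, 98648539 to 98964530), the receptor of insulin-like growth factors, had the most peaks of the set, 9 in replicate 1 and 7 in replicate 2. The 7 peaks of replicate 2 were all shared. In exon 1, which is mostly 5′ UTR, the outermost peak had fold enrichments of 6.93 and 4.11 and the next 3.45 and 3.05. In exon 2, the values were 6.35 and 4.26. The other shared peaks lay in last exon 21, of 7470 nt. The peak at the stop codon had 6.89 in replicate 1 and 4.15 in replicate 2, with summits at −126 and −117 nt in CDS. It was followed by the strongest IGF1R peak, at 683 and 695 nt in the 3′ UTR, with 7.74 and 7.02. Further out in the 3′ UTR were peaks at 4461 and 4420 nt, with 7.18 and 6.12, and at 5132 and 5119 nt, with 6.46 and 5.98. All 7 shared peaks were higher in replicate 1. The replicate 1 peaks without a counterpart, in exon 3 and at 3433 nt, were the weakest of the gene, at 2.14 and 2.78.

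INSR (ENSG00000171105.14, minus strand of chromosome 19, 7112255 to 7294414), the insulin receptor, carried 5 exonic peaks in the first list and 4 in the second, and the latter were all shared. The strongest lay at the stop codon, with 7.28 in replicate 1 and 8.53 in replicate 2 and summits 2 bp apart, at −173 and −171 nt in CDS. The GGAC shown above as the INSR site lay at −6 and −8 nt from these summits, where the minus sign means upstream. In the 3′ UTR, the peak at 793 and 686 nt had 6.67 and 6.399, and that at 1755 and 1651 nt had 6.195 and 6.06. The exon 2 peak had 3.56 and 4.202, so that it was one of the few with the higher value in replicate 2. A weak 5′ UTR peak of 2.69 was found in replicate 1 alone.

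Some peaks of IGF1R and INSR lay at like places. Exon 2 is the longest internal exon in both genes, 546 nt in IGF1R and 552 nt in INSR, and encodes part of the extracellular ligand-binding region. Counted from the start codon, the replicate 1 summits in exon 2 lay at 376 nt in IGF1R and 381 nt in INSR. In replicate 2 they lay at 465 and 374 nt. Each gene had a further shared peak in the last coding bases before the stop codon and others within the 3′ UTR. The shared peaks of IGF1R in exon 1 and at 4461 and 5132 nt in the 3′ UTR had no shared counterpart in INSR. The INSR transcript is shorter, with 523 nt of 5′ UTR and 4794 nt from the stop codon on. The outermost IGF1R summit, at −861 nt from the start codon in replicate 1, and that at 5132 nt thus have no matching place in INSR. INSRR, the remaining receptor of this family, had no exonic peak in either list.

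The fibroblast growth factor receptors carried the fewest shared peaks. FGFR2 (ENSG00000066468.24, minus strand of chromosome 10, 121478332 to 121598458) had a single exonic peak in each list, just after the stop codon, with summits at 65 and 47 nt. Its value of 12.3 in replicate 1 was the highest of all receptor peaks and stood at percentile 93.7 of the list, whereas the 5.30 of replicate 2 stood at percentile 57.5. FGFR3 (ENSG00000068078.20, plus strand of chromosome 4, 1793293 to 1808872) carried 4 exonic peaks in the first list and 1 in the second. The shared one lay at the stop codon, with summits at −21 and 2 nt, and was the weakest pair of the set, at 3.496 and 2.37. The unshared ones of replicate 1 lay in the 5′ UTR, in exon 2 and in the 3′ UTR, with 6.77, 2.296 and 4.22. FGFR4 (ENSG00000160867.15, plus strand of chromosome 5, 177086905 to 177098144) had 1 peak, in replicate 1, with 5.31. Its summit lay in an alternative first exon of transcript ENST00000513166.1 that is annotated as 5′ UTR, outside the transcript with the longest CDS.

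Next, the positions of the peaks on the transcript with the longest CDS were compared with those of all exonic peaks. The last exon held 17 of 27 receptor summits in replicate 1 (63.0%, beside 48.4% of all such summits) and 14 of 20 in replicate 2 (70.0%, beside 56.5%). All 8 receptors with a shared peak had one there. Last exons made up 50.9% of the bases of the 10 receptor transcripts, which stands beside these shares. Of the other shared pairs, 4 lay in the longest internal exon, in MET, IGF1R and INSR, and 2 in the first exon of IGF1R. The longest internal exon held 14.8% and 20% of receptor summits in replicates 1 and 2, beside 19.0% and 22.0% of all such summits. The first exon held 14.8% and 10.0%, beside 13.9% and 9.0%, so neither class stood far from its background. Exons 4 to the second last, which encode much of the extracellular domain, the membrane-spanning segment and most of the kinase domain, made up 34.6% of the bases. They held 0 summits in replicate 1 and 0 in replicate 2, a stretch defined after the positions were seen. In all transcripts with 18 to 28 exons, the range of the receptors, and an exonic summit, this stretch held 41.0% of 2568 summits in replicate 1 and 38.5% of 1626 in replicate 2. There it made up 48.3% and 47.6% of the bases.

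By region, the 200 nt before and after the stop codon held 6 of 27 summits in replicate 1 (22.2%, 95% Wilson interval 10.6% to 40.8%), beside 24.5% of all such summits. In replicate 2 it held 8 of 20 (40%, 21.9% to 61.3%), beside 27.1%. Both intervals, which cover counting error only, hold the value of all genes. The rest of the 3′ UTR held 37.0% (21.5% to 55.8%) of receptor summits in replicate 1, beside 17.3% of all summits, and 30% (14.5% to 51.9%) in replicate 2, beside 19.0%. CDS outside the stop codon window held 25.9% (13.2% to 44.7%), beside 49.4%, and 20.0% (8.07% to 41.6%), beside 48.2%. In the 5′ UTR lay 4 summits of replicate 1 (14.8%, beside 8.83%) and 2 of replicate 2 (10.0%, beside 5.69%). The shares of 3′ UTR, CDS and 5′ UTR were not set against the lengths of these regions. Last exons, which hold all the 3′ UTR of these transcripts, made up 50.9% of receptor bases. These shares are not given without IGF1R, the gene with the most peaks. Several summits come from 1 gene, so they are not independent and the intervals may be too narrow. The stop codon share was also taken with IGF1R left out, a choice made after the data were seen. It was 27.8% (12.5% to 50.9%) in replicate 1 and 53.8% (29.1% to 76.8%) in replicate 2. The interval of replicate 1 held the 24.5% of all genes, and that of replicate 2 lay above their 27.1%, which is not a test. With a window of 100 nt the receptor share fell to 7.41% in replicate 1 and 20% in replicate 2, beside 14.6% and 16.3% of all summits.

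**Figure D2:**
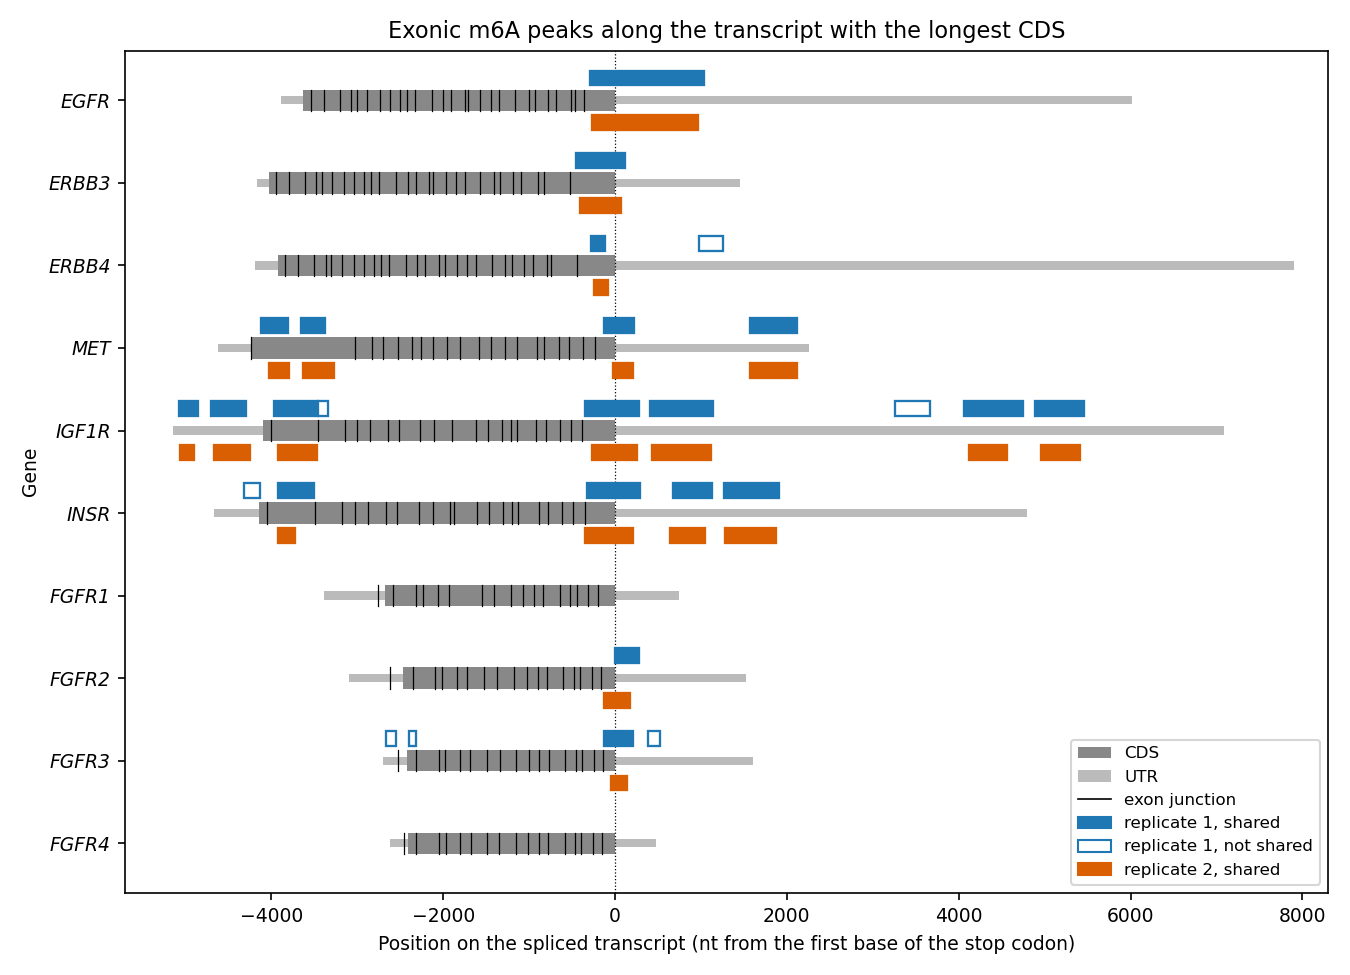
Exonic m6A peaks of each receptor along its spliced transcript with the longest CDS, in nt from the stop codon (dotted line). Dark grey is CDS, light grey UTR and black ticks exon junctions, and replicate 1 peaks stand above and replicate 2 peaks below each transcript, filled where shared. Shared peaks lie in the last exon of 8 receptors, in exon 2 of MET, IGF1R and INSR and in exon 1 of IGF1R. None lies in exons 4 to the second last, and the FGFR4 peak is not drawn because it lies outside the transcript.

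Overlap between the lists differed between exonic and intronic peaks. Of the 28 exonic peaks in replicate 1, 20 (71.4%, Wilson interval 52.9% to 84.7%) overlapped a peak of replicate 2 by 1 bp or more, beside 60.2% of all exonic peaks of that list. Of the 20 exonic peaks in replicate 2, 20 (100%, 83.9% to 100%) were shared, beside 95%. The 8 exonic peaks found in replicate 1 alone had a median fold enrichment of 3.498, and the 20 shared ones 6.27. Their widths had medians of 157.5 and 503.5 bp.

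Introns of the receptors held 0 peaks in replicate 1 and 7 in replicate 2, of which 5 were in ERBB4 and 2 in EGFR. None of the 7 was shared (0 of 7, which allows a share of up to 42.9%), beside 36.0% of the 3845 intronic peaks of all genes in replicate 2 and 39.6% of 3199 in replicate 1. The ERBB4 ones had fold enrichments of 4.23, 4.23, 4.58, 6.85 and 4.69 and the EGFR ones 5.71 and 3.44, a range that overlaps that of the exonic peaks. Their −log10 q had a median of 2.60, beside 18.4 for exonic receptor peaks of the same list. GGAC lay within 50 nt of 1 of these summits, on the strand of the gene. No share over all intronic peaks stands beside this count.

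The fold enrichments of the 20 paired peaks, which were each other's largest overlap, were then set side by side. In 17 of 20 pairs the value was higher in replicate 1, beside 80.0% of 11741 exonic pairs of all genes. The median log2 ratio of replicate 1 over replicate 2 was 0.26, beside 0.43 over all pairs. The ratio ran from −0.24 in the exon 2 peak of INSR to 1.22 in FGFR2, which stood at percentile 92.8 of all exonic pairs. The pairs higher in replicate 2 were 2 of INSR and 1 of MET. Across the 20 pairs, log2 fold enrichment had Pearson's r = 0.69 and Spearman's rho = 0.71, beside 0.70 and 0.68 over all exonic pairs. These describe peaks of 8 genes in a pair of libraries, and 7 of the pairs are in IGF1R. Summits lay a median of 22 bp apart, and 15 of 20 pairs within 100 bp, beside a median of 26 bp and 85.2% of pairs over all genes.

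**Figure D3:**
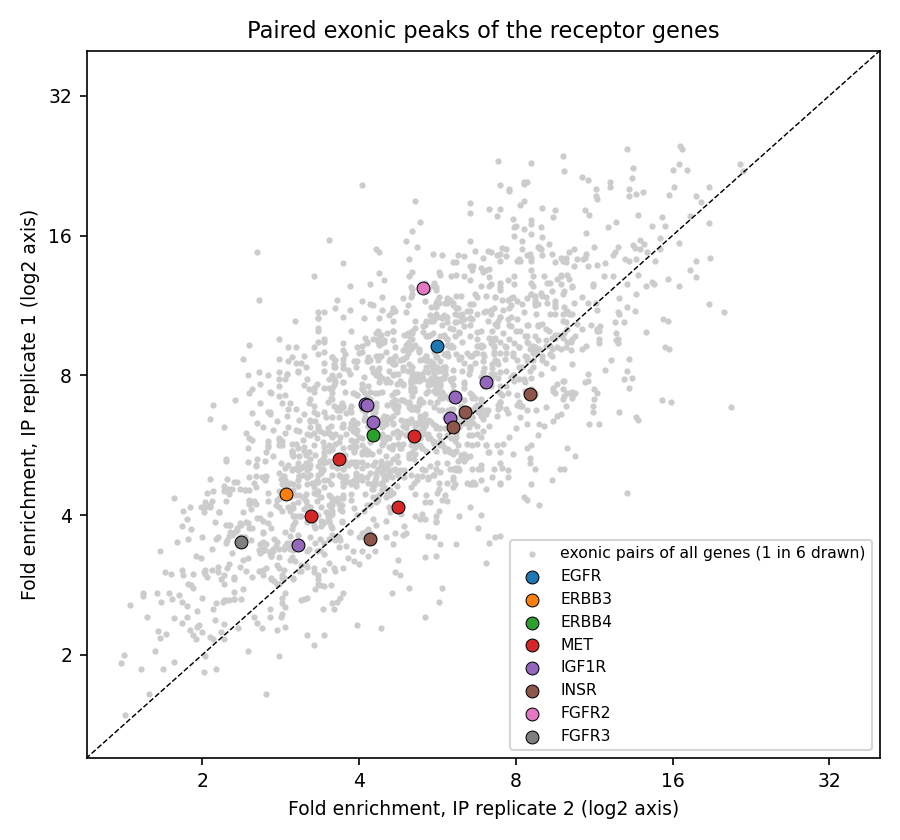
Fold enrichment of the 20 paired receptor peaks in replicate 2 (x axis) and replicate 1 (y axis), both on log2 axes, over exonic pairs of all genes in grey, of which 1 in 6 is drawn. The dashed line marks equal values. In 17 of the 20 pairs the point lies above it, FGFR2 farthest, and 2 INSR pairs and 1 MET pair lie below.

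The GGAC core was searched within 50 nt of the summits on the strand of each gene. It was present at 16 of 28 exonic receptor summits in replicate 1 (57.1%, Wilson interval 39.1% to 73.5%), beside 49.7% of all exonic summits. In replicate 2 it was present at 13 of 20 (65.0%, 43.3% to 81.9%), beside 51.5%. The values of all genes lie within both intervals. Its reverse complement GTCC, a strand control in the same windows, was present at 9 of 28 and 9 of 20 summits, 32.1% and 45.0%, beside 31.5% and 29.6% of all exonic summits. The shared intervals of the 20 pairs spanned 8243 bp and held 39 GGAC motifs, with no such count over all genes beside it.

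At the level of single sites, 18 of 20 shared intervals held a GGAC, beside 83.7% of 11734 exonic pairs of all genes. The median interval was 409 bp for the receptors and 358 bp for all pairs. In 10 of the 18 there was a single GGAC, beside 2564 of 9820 such pairs of all genes. A single GGAC is nearest to both summits by necessity. Of the 8 with 2 or more, the same GGAC was nearest to the summit of both replicates in 6, beside 67.5% of 7256 such pairs. The exceptions were EGFR, whose summits were far apart, and the distal 3′ UTR peak of MET. Of the 18 motifs nearest to the replicate 1 summit, 16 were full DRACH matches, where D stands for A, G or T, R for A or G and H for any base but G. GGAC meets all but the last position of DRACH, so only the base after it decided this. No share over all genes stands beside it. The other two, in the outermost IGF1R peak and at the FGFR3 stop codon, are followed by G. The intervals without GGAC were those of ERBB4 and of the IGF1R peak at 4461 nt. Among the GGAC sites shown, that of INSR near the stop codon lay closest to its summit in replicate 1, at −6 nt. In replicate 2 it was that in exon 2 of IGF1R, at 1 nt, which lay 90 nt from the replicate 1 summit.

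Finally, the other genes of receptor signalling were counted in the same way. The lists were not matched in length. Median annotated exon sequence was 12361 nt in the 10 receptors and 7258.5 nt in the further receptor tyrosine kinases. It was 4849 nt in the ligands, 7246 nt in the adaptors and effectors, and 6002 nt in the inhibitors and co-receptors. Of 48 further receptor tyrosine kinases, 14 (29.2%) had an exonic peak in both replicates, near the 33.4% of all protein-coding genes. The 3 with the strongest shared peak were AATK, LMTK3 and MERTK. AATK, a brain-enriched kinase, had 12.3 in replicate 1 and 10.3 in replicate 2. LMTK3, of the same family, had 15.8 and 7.92. MERTK, a receptor for the clearance of dead cells, had 11.8 and 9.12.

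Of 37 ligands, 5 (13.5%) had an exonic peak in both replicates, beside 33.4% of all protein-coding genes, and 29 had none in either. HBEGF, a ligand of EGFR and ERBB4, had 13.4 and 9.64. FGF18, a ligand of the FGF receptors, had 9.18 and 11.45, and FGF2, another, had 7.14 and 6.16 in an exon that overlaps one of NUDT6, so its gene is uncertain.

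Among 19 adaptors, docking proteins and effectors, 14 (73.7%) had an exonic peak in both replicates, beside 33.4% of all protein-coding genes. PIK3CA, the catalytic subunit of PI3K, had 14.3 and 15.7. FRS2, the docking protein of the FGF receptors, had 19.1 and 8.45, and PIK3R1, the regulatory subunit of PI3K, had 11.98 and 11.88. In replicate 1, FRS2 and PIK3CA stood above the highest receptor peak, that of FGFR2, and PIK3R1 below it. In replicate 2, PIK3CA and PIK3R1 stood above the highest, the INSR value of 8.53, and FRS2 just under it. Of 13 inhibitors and co-receptors, 8 (61.5%) had an exonic peak in both replicates, beside the same 33.4%. The strongest were LRIG2, with 19.5 and 7.16, and LRIG3, of the same family, with 10.6 and 9.14. Next came RNF41, a ubiquitin ligase that acts on ERBB3, with 12.3 and 7.15.

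**Figure D4:**
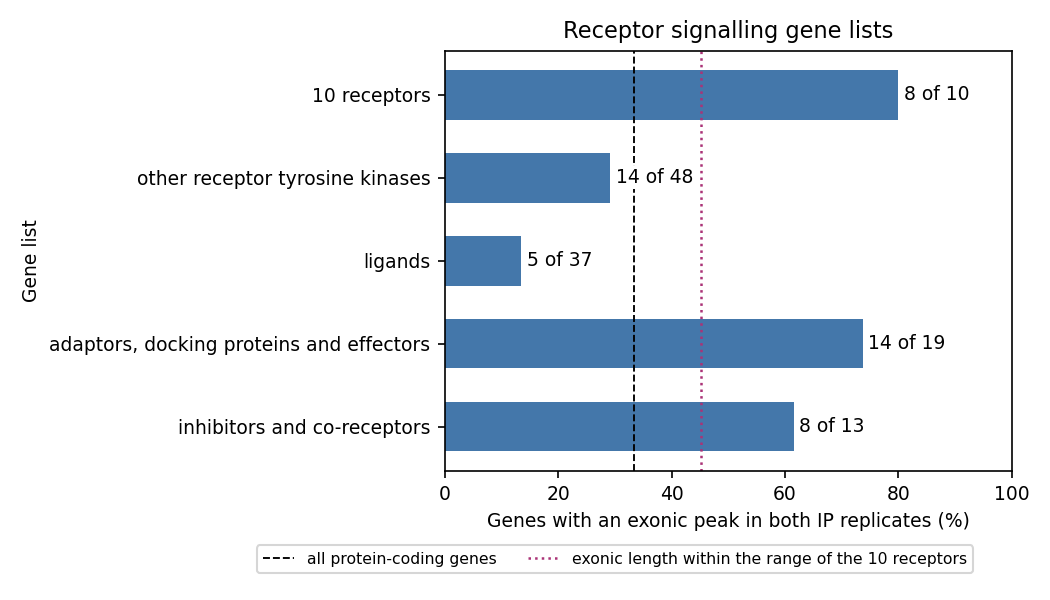
Share of genes (%) with an exonic peak in both IP replicates for the 10 receptors and 4 lists of related genes, with counts beside the bars. The dashed line marks all protein-coding genes (33.4%) and the dotted line those with exonic length in the range of the receptors (45.2%). The 10 receptors, the adaptors and the inhibitors lie above both lines, and the other receptor tyrosine kinases and the ligands below both.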

How the data were processed

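meRIP-seq peak lists of 2 m6A IP samples of OE-19 cells were used. The 2 input samples gave no list analysed here. The study's methods name DNase treatment and fragmentation of total RNA before the IP, mapping to hg38 with TopHat2 and peak calling with MACS2, both with default settings. The submitters' processing notes instead name fastp, HISAT2 and MACS2, and the labels describe UV-fixed, lysed cells. Versions, and whether the input served as control, are not given in the sources used here. The authors deposited, per sample, the fold enrichment ratio at the summit, −log10 p-value and −log10 q-value columns, a score made from −log10 q and not used here, and the summit offset. The lists end near q of 0.05.

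Contig names matched hg38 in full (44 of 44 and 53 of 53). Genes came from GENCODE version 44, with 62700 genes, and symbols matched for all genes named. The lists carry no strand. Peaks were shared with an overlap of 1 bp or more. Regions were set on the transcript with the longest CDS, and motifs were searched within 50 nt of summits in the genome sequence. With 1 library per list and 1 group with values, no test was run. Intervals are 95% Wilson intervals, and without read numbers the number of peaks limits the precision. Fold enrichment depends on the caller's background, so it is not an m6A level. All receptors were named, as were the 3 genes with the strongest shared exonic peak of each related list. Members and lists were chosen with earlier results of these data known. The scripts recovered planted positions, overlaps and motifs in a test on simulated data. Python 3.11.15, numpy 2.4.6, pandas 2.3.3, scipy 1.17.1, pysam 0.24.0 and matplotlib 3.10.9 were used.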

Additional observations from a re-analysis of the deposited data

How the results depend on the processing

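Of 51 alternative values, 42 moved by less than the limit set, which was 1.5 times for counts, the interval of the value for shares and for the median log2 ratio, and the spread between replicates for the median fold enrichment. The median log2 ratio kept its sign in each. Without IGF1R it was 0.297, with an interval of −0.192 to 0.621 that takes in both signs. With all pairs the interval was 0.113 to 0.578. The intervals of shares are wide, so large moves stayed within the limit. With summits within 100 bp, the shared percent was 53.6% and 55.6% in replicates 1 and 2, against 71.4% and 74.1%. At a fold enrichment of 5 or more it was 52.9% and 81.8%. The GGAC share was then 58.8% and 44.4%, against 57.1% and 65%. The alternatives without IGF1R were not planned. At a fold enrichment of 5 or more, 5 receptors had an exonic peak in both replicates, the peaks numbered 17 in replicate 1 and 11 in replicate 2, and the median fold enrichment of exonic peaks was 6.67 and 6.06, which follows from the removal of weaker peaks. At q of 1e-05 or less, 90.5% of replicate 2 peaks were shared. GGAC within 25 nt was present at 21.4% of replicate 1 summits. With a stop codon window of 100 nt, the share of summits was 7.41% in replicate 1 and 20% in replicate 2, beside 14.6% and 16.3% of all summits. The genes with an exonic peak numbered 8 without replicate 1 and 9 without replicate 2. The depth of the libraries is unknown, so a peak missing from a list may be missing for lack of reads. No paired analysis was possible because the input samples gave no values here.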

Other observations

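Across the 20 paired receptor peaks, the summit of replicate 1 lay further toward the 3′ end in 13 (65.0%), with a median shift of 18 nt, beside 49.9% and a median of 0 nt over all exonic pairs. Several of these pairs come from the same gene, so they are not independent, and the shift was not tested. GGAC within 25 nt was present at 6 of 28 receptor summits in replicate 1 (21.4%, Wilson interval 10.2% to 39.5%), beside 29.0% of all exonic summits. In replicate 2 it was present at 11 of 20 (55.0%, 34.2% to 74.2%), beside 30.1%. Within 100 nt the receptor shares were 71.4% and 75%, beside 71.7% and 73.1%. Whether the shift and the shares are connected was not tested.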
